A study of Mus musculus with 46 samples.

Results

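Cytosolic ribosomal protein genes encode the protein parts of the ribosome that translates nuclear-encoded messenger RNA. Members were chosen by name and not by level: protein-coding genes whose symbol is Rps or Rpl followed by a number, with at most 1 letter after it, together with Rplp0, Rplp1, Rplp2 and Rpsa. Pseudogenes and the Rps6k kinases were left out. The rule took 80 of the 53801 genes in the table, 31 of the small subunit (Rps and Rpsa) and 49 of the large subunit (Rpl and Rplp).

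The libraries are RNA-seq of glial progenitor cells from the striatum of mouse models of Huntington disease and their wild-type (WT) littermates. R6/2 mice carry a transgene of a short human huntingtin fragment with an expanded CAG repeat, and in zQ175 mice the repeat is expanded in the endogenous Htt gene. All mice, WT littermates included, carried an EGFP reporter of PDGFRA, a receptor of glial progenitors, and EGFP-positive cells were sorted from pools of the striata of litter mates of 1 genotype. Each library was 1 pool, of 3 to 4 mice, or of 4 to 8 mice at 1 year. The groups were R6/2 at 6 weeks (n = 6 libraries), WT littermates of R6/2 at 6 weeks (n = 5), R6/2 at 12 weeks (n = 7), WT littermates of R6/2 at 12 weeks (n = 7), zQ175 at 12 weeks (n = 6), WT littermates of zQ175 at 12 weeks (n = 6), zQ175 at 1 year (n = 5) and WT littermates of zQ175 at 1 year (n = 4). The labels give no sequencing batch, so that a difference between lines or ages cannot be told apart from a batch.

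A ribosome is built from a small subunit, which reads the messenger RNA, and a large subunit, which joins the amino acids, and each holds its proteins in equal numbers apart from the stalk proteins P1 and P2, which are present as more than 1 copy. Messenger RNAs of ribosomal proteins are known as TOP mRNAs because they begin with a C followed by a run of pyrimidines, through which the kinase mTOR and the protein LARP1 set how much of them is translated. Glial progenitors divide and then make large amounts of myelin protein and membrane as oligodendrocytes, both of which need ribosomes.

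The start site of each gene can be read for such a run in the RefSeq promoter table (build GRCm38.p6), which held a window for 60 of the 80 members. A run of at least 5 pyrimidines that lay at least partly within 5 bases of the annotated start was found in 33 of the 60 (55%) and in 31.4% of all 16507 windows. The sequences below show 30 bases, of which the first 15 lie before the annotated start, for members whose values are described further on. Capitals mark the pyrimidine run, and the last 5 have none at this place. The runs of Rpl13a and Rpl27a, 14 and 20 bases long, go on past the end of the bases shown.
Rplp2: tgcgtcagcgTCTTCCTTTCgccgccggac
Rps6: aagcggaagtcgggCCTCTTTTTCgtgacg
Rps26: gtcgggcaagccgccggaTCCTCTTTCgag
Rps27: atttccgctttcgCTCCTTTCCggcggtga
Rpl13a: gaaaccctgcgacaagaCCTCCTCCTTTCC
Rpl27a: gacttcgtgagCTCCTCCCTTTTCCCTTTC
Rpl28: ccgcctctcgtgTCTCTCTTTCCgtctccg
Rplp0: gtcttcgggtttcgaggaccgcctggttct
Rpsa: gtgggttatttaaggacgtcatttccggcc
Rps12: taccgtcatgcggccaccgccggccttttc
Rpl22: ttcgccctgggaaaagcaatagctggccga
Rpl37a: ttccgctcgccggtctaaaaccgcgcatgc

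On build GRCm38.p6 these windows lie at chr7:141447636-141447665 (plus strand) for Rplp2, chr4:86857353-86857382 (minus) for Rps6, chr10:128626492-128626521 (minus) for Rps26, chr3:90213634-90213663 (minus) for Rps27 and chr7:45128731-45128760 (minus) for Rpl13a. Those of Rpl27a and Rpl28 lie at chr7:109519180-109519209 (plus) and chr7:4792950-4792979 (plus). The windows of Rplp0, Rpsa, Rps12, Rpl22 and Rpl37a lie at chr5:115559452-115559481 (plus), chr9:120127751-120127780 (plus), chr10:23787195-23787224 (minus), chr4:152325711-152325740 (plus) and chr1:72711245-72711274 (plus). An annotated start can be some bases away from the start used in these cells, so that a window with no run does not show that the messenger RNA lacks one. In the 300 bases of each window (250 before and 50 after the start), both strands searched, the letters CCGGAA, the core of ETS factor sites, were present in 50% of the member windows and in 19.6% of all windows. The letters AAGATGG, the core of YY1 sites, were present in 13.3% against 6.43%, GGGCGG in 58.3% against 48%, and TATAAA in 8.33% against 12.8%.

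Library totals ranged from 23338185 to 49166260 counts. Markers of mature oligodendrocytes were abundant in these sorted cells: the 16 markers of that list summed to between 47910 and 165400 CPM (counts relative to library size), against 1633 to 4052 CPM for 12 markers of oligodendrocyte progenitors. Much of the progenitor sum came from Olig1, which mature oligodendrocytes express too, with group means of 1278 to 2037 CPM, while those of Pdgfra, the gene the reporter marks, were 4.91 to 76.4 CPM. Of 14 neuronal markers, 7 averaged less than 1 CPM (Rbfox3, Syt1, Gad2, Slc17a7, Drd1, Drd2 and Penk), but the 14 summed to between 37.0 and 208 CPM in a library, and group means were 37.9 to 133 CPM for Tubb3. The RSEM program shares a read among genes it matches equally well, and ribosomal protein genes have many processed pseudogenes, of which the table lists 291. Accordingly the median member had values that were not whole in 97.8% of libraries, against 0% for the median of all genes with a mean count of at least 10. Members with mostly whole values are therefore given beside the others. In bulk samples, fewer cells of a type and less RNA per cell cannot be told apart.

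The members together took a small and group-dependent share of the counts. In the R6/2 line the share was between 0.242% and 0.599% of a library, and in the zQ175 line between 0.659% and 2.03%, so that the lines did not overlap. Among WT littermates of the R6/2 line it was 0.355% ± 0.0361 (SD, n = 5) at 6 weeks and 0.300% ± 0.0309 (n = 7) at 12 weeks. Among WT littermates of the zQ175 line it was 0.845% ± 0.116 (n = 6) at 12 weeks and 1.78% ± 0.179 (n = 4) at 1 year. In R6/2 it was 0.433% ± 0.0899 (n = 6) at 6 weeks and 0.328% ± 0.105 (n = 7) at 12 weeks, and in zQ175 1.06% ± 0.0707 (n = 6) at 12 weeks and 1.47% ± 0.168 (n = 5) at 1 year. These are descriptions of the libraries with no test. In the plot of the share by library, R6/2 at 12 weeks replicate 7 (0.542%) lay apart from its group by Dixon's test. R6/2 at 6 weeks replicate 1 (0.599%) was the highest of its group and did not pass that test.

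**Figure D1:**
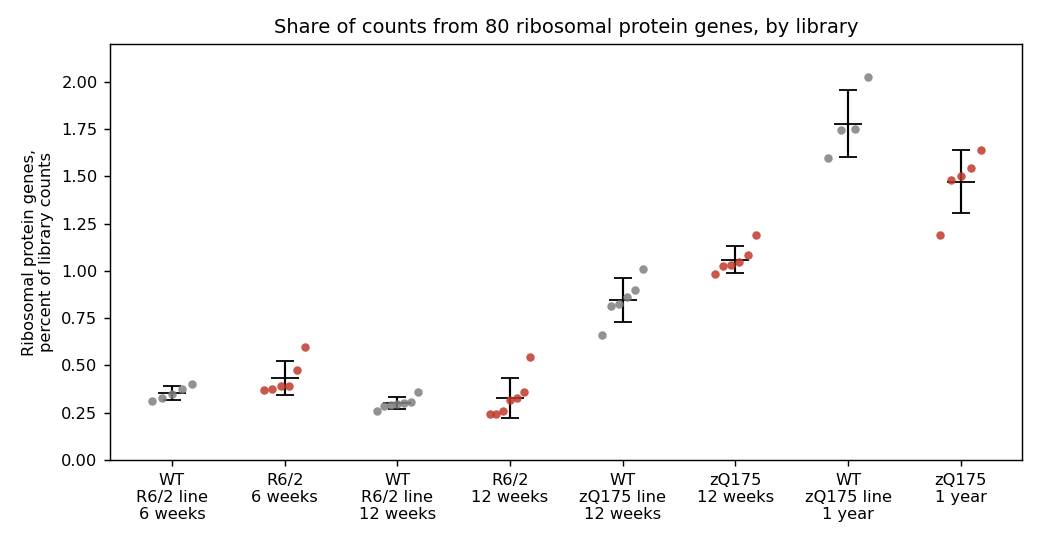
Share of library counts (percent, y axis) from the 80 ribosomal protein genes in each of the 46 libraries, by group (x axis), with grey points for WT littermates, red points for R6/2 or zQ175, and bars for the mean ± SD. All R6/2-line libraries sit below 0.6% and all zQ175-line libraries above 0.65%, with the highest group at 1.78% ± 0.179 in WT littermates at 1 year.

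Counts from genes of the mitochondrial genome were high or low in some of the same libraries: in 5 of the 8 groups 1 library was the highest in both shares, and in 5 of 8 1 library was the lowest in both. R6/2 at 6 weeks replicate 1 and R6/2 at 12 weeks replicate 7 had the highest mitochondrial share of their group, 2.57% and 2.72%, where the median was 1.05% in R6/2 at 6 weeks and 1.02% in R6/2 at 12 weeks. In the zQ175 line at 1 year, the library with the lowest ribosomal protein share, zQ175 replicate 4 (1.19%), had the lowest mitochondrial share (1.77%), and that with the highest, WT replicate 4 (2.03%), had the highest (5.11%). Group means did not always move alike: in WT littermates of the R6/2 line the mitochondrial share was 0.976% at 6 weeks and 1.302% at 12 weeks, where the members' share was lower, and at 12 weeks it was 2.43% in zQ175 and 2.497% in WT, where the members' share was higher in zQ175. The part of mitochondrial content or RNA quality in the results below was not tested.

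**Figure D2:**
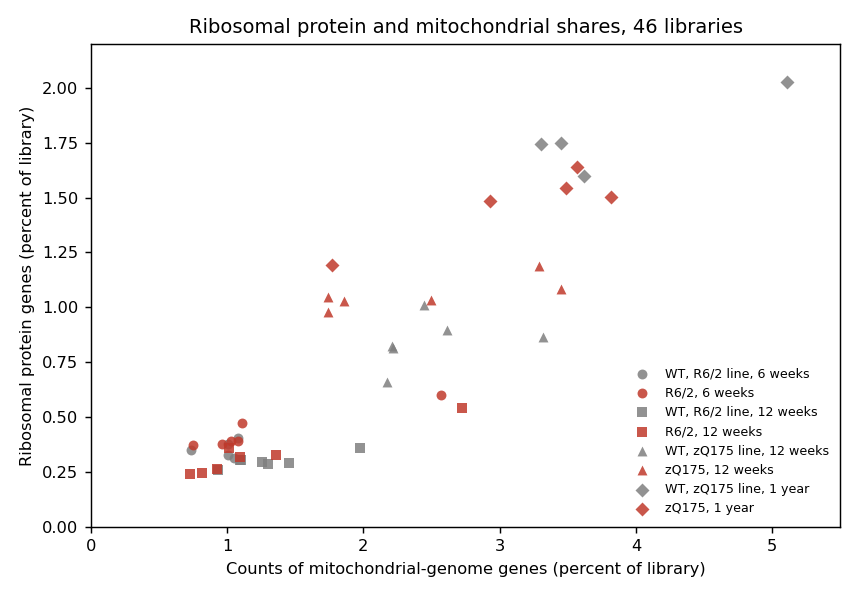
Share of counts from the 80 ribosomal protein genes (percent, y axis) against the share from genes of the mitochondrial genome (percent, x axis) in 46 libraries, with marker shape for line and age, grey for WT littermates and red for R6/2 or zQ175. R6/2 at 6 weeks replicate 1 (0.599% and 2.57%) and R6/2 at 12 weeks replicate 7 (0.542% and 2.72%) lie to the right of the other R6/2-line libraries.

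Of the 80 members, 77 passed the filter on low counts in all 9 comparisons. The other 3 are copies with a restricted expression in the body: Rpl3l, the muscle form of Rpl3, had counts in 1 library, Rpl39l, a testis form of Rpl39, in 6 libraries, and Rpl10l, a testis copy of the X-linked Rpl10, in 0 of 46. The 77 rose and fell together: over the 46 libraries the median correlation between 2 members' log2 levels was 0.98, and 0.83 after the mean of each group was taken out (a description over 2926 pairs, whose points share library, depth and scaling). The members that followed the others least within groups were Rpl26, Rpl22 and Rpsa, with median correlations of 0.57, 0.63 and 0.64.

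Changes below are log2 fold changes from edgeR's quasi-likelihood test on rounded counts with TMM scaling. Each is given with a standard error (SE), derived as the absolute change divided by the square root of the test's F statistic. A gene was called at a Benjamini-Hochberg adjusted p below 0.05 over all genes tested. Levels are TMM-scaled CPM over all 46 libraries. Each WT group serves in more than 1 comparison, so that a genotype comparison and an age comparison of the same line share libraries, and their values are given side by side only.

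The clearest change was between the 2 ages in WT littermates of the zQ175 line. Pools held 3 to 4 mice at 12 weeks and 4 to 8 at 1 year, so that age cannot be told apart from pool size or a batch. From 12 weeks to 1 year, 77 of 77 members were higher and 0 lower, where 18.4% of the 14888 genes tested were called higher and 21.4% lower. The median member was 2.40-fold higher (log2 1.26, quartiles 1.02 and 1.46), against a median of -0.04 over all genes. Every member's 4 libraries at 1 year lay above its 6 libraries at 12 weeks, which held for 15.7% of all genes tested. The 31 small-subunit members had a median of 1.27 and the 46 large-subunit members a median of 1.26.

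The stalk of the large subunit, which recruits elongation factors, is made of Rplp0, Rplp1 and Rplp2. Rplp0 was at 241 (lowest), 302 (median) and 345 (highest) CPM at 12 weeks and at 659, 620, 712 and 489 CPM in the 4 libraries at 1 year. Its change was 1.00 (SE 0.12, adjusted p = 3.16e-05). Rplp1 rose by 1.58 (SE 0.13, adjusted p = 4.22e-06) and Rplp2 by 1.81 (SE 0.16, adjusted p = 6.79e-06), so that all 3 stalk genes were higher at 1 year in every library.

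Of the small subunit, Rps29 had the largest rise of the 77 members. Its level was 61.95, 95.3 and 125 CPM (lowest, median and highest) at 12 weeks and 275, 308, 543 and 350 CPM at 1 year, a change of 1.94 (SE 0.21, adjusted p = 1.79e-05). The groups did not overlap, and WT replicate 4 was the highest library at 1 year. Rps6, the substrate of S6 kinase and a common readout of mTOR activity, rose by 0.88 (SE 0.12), and Rps19, the gene most often mutated in Diamond-Blackfan anemia, by 1.34 (SE 0.14). Rps4x, the X-linked member of the small subunit, rose by 1.29 (SE 0.14). Rpsa, which is also known as the laminin receptor precursor, rose by 0.92 (SE 0.13, adjusted p = 0.000154).

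Of the large subunit, Rpl28 was at 57.5, 79.0 and 82.6 CPM at 12 weeks and at 226, 251, 359 and 229 CPM at 1 year, a change of 1.80 (SE 0.15, adjusted p = 5.74e-06). Rpl38, which is known for its part in the translation of Hox messenger RNAs in the embryo, rose by 1.65 (SE 0.19), and Rpl10, a late-joining protein at the core of the large subunit, by 1.36 (SE 0.16). Rpl5 and Rpl11, which form a particle with 5S ribosomal RNA and can bind MDM2, rose by 0.74 (SE 0.16) and 0.95 (SE 0.11). The smallest rises were in Rpl3 (0.44, SE 0.14) and Rpl4 (0.51, SE 0.09), the members with the longest coding sequences of those tested.

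**Figure D3:**
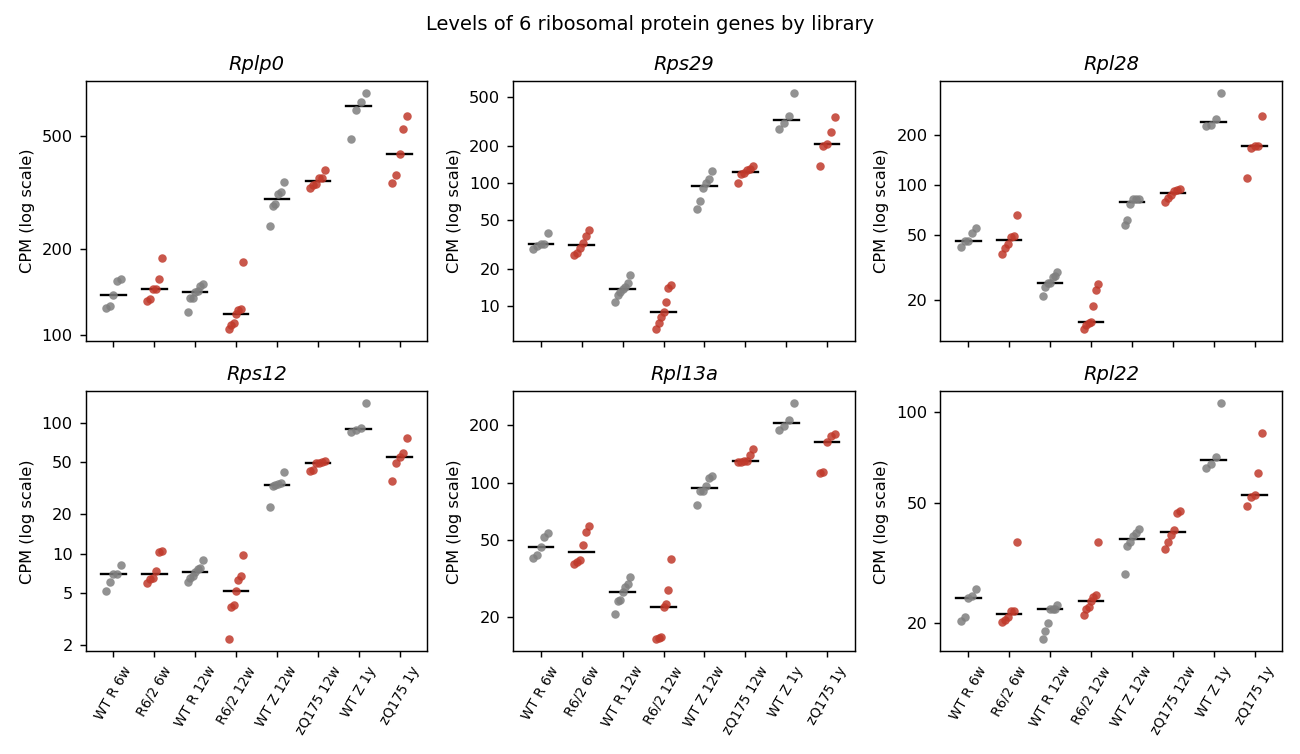
TMM-scaled CPM (log y axis) of 6 members by library, with WT littermates in grey and R6/2 or zQ175 in red, black lines for medians, and groups on the x axis in which R and Z stand for the R6/2 and zQ175 lines, w for weeks and y for year. In all 6 panels the WT libraries of the zQ175 line at 1 year lie above those at 12 weeks, and Rpl28 shows the lowest levels in R6/2 at 12 weeks (13.4 to 24.99 CPM).

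The size of that rise went with length. Across the 77 members the change fell with coding length (Spearman rho -0.60, a description across genes, which are not independent replicates), where Rps29 has 168 coding bases and Rpl4 1257. Short genes that are not ribosomal moved the same way: of 1131 protein-coding genes tested with at most 500 coding bases, a cut set after the data were seen, 614 were higher and 71 lower, with a median of 0.66. Their share of counts was 8.10% to 10.1% in WT libraries of the zQ175 line at 12 weeks and 12.7% to 13.2% at 1 year. Markers of other cells rose as well. Of the fibroblast markers 7 of 9 tested were higher, of the mural markers 5 of 9 and of the microglia and macrophage markers 8 of 13, with summed fibroblast levels of 24.7 to 104 CPM at 12 weeks and 107 to 400 CPM at 1 year and summed microglia and macrophage levels of 117 to 207 CPM and 225 to 403 CPM. Of the mature oligodendrocyte markers 9 of 16 were lower and 2 higher. The part of gene length and of these cells in the members' rise was not tested.

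**Figure D4:**
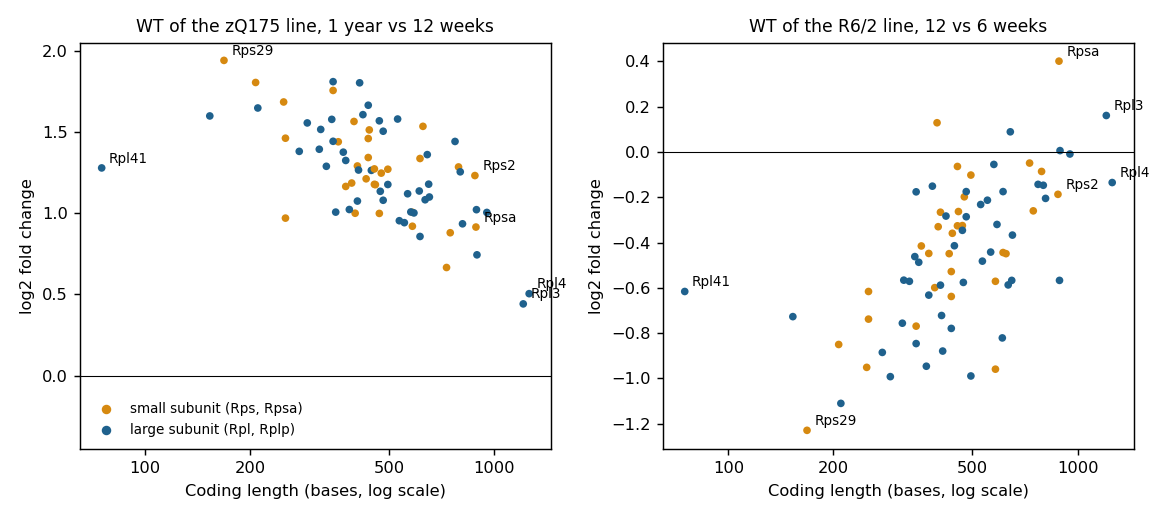
Log2 fold change (y axis) of 77 members against coding length in bases (log x axis) in WT littermates of the zQ175 line, 1 year against 12 weeks (left), and of the R6/2 line, 12 against 6 weeks (right), with small-subunit members in orange and large-subunit members in blue. Rps29 has the largest rise on the left (1.94) and the largest fall on the right (-1.23), and Rpl3 lies at 0.44 and 0.16.

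Between 6 and 12 weeks in WT littermates of the R6/2 line the members moved the other way. Of 77, 48 were lower and 1 higher, against 13.1% and 12.2% of 14912 genes tested, and the median was -0.44 (quartiles -0.63 and -0.20) against 0.04 over all genes. All 7 libraries at 12 weeks lay below all 5 at 6 weeks for 36 members, and for 8.11% of all genes. The 2 age comparisons cover different spans in different lines, and the difference between them was not tested.

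Rps29 was at 29.1, 31.0, 32.1, 39.7 and 31.8 CPM at 6 weeks and at 10.8, 13.8 and 17.8 CPM (lowest, median and highest) at 12 weeks. Its fall was the largest of the members, -1.23 (SE 0.12, adjusted p = 1.01e-05), with no overlap. Rpl38 fell by 1.11 (SE 0.14, adjusted p = 8.04e-05), Rpl28 by 0.88 (SE 0.10, adjusted p = 1.89e-05) and the stalk gene Rplp2 by 0.85 (SE 0.12, adjusted p = 0.000191).

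Members did not all fall. Rplp0 had a change of -0.01 (SE 0.08, adjusted p = 0.949) and Rpl5 of 0.01 (SE 0.10, adjusted p = 0.976). Rpsa was the 1 member called higher: it was at 94.8, 84.2, 102, 80.1 and 85.7 CPM at 6 weeks and at 85.8, 127 and 137 CPM (lowest, median and highest) at 12 weeks, a change of 0.40 (SE 0.11, adjusted p = 0.0177). Its groups overlapped. Without 1 of 5 libraries, WT at 12 weeks replicate 3 or 7 or WT at 6 weeks replicate 2, 4 or 6, it was not called, and the number of members higher was 0. Again the change went with coding length (rho 0.62), and short genes that are not ribosomal had a median of -0.23, with 399 of 1110 lower and 48 higher. Of the mature oligodendrocyte markers 12 of 16 were lower, with sums of 162400 to 165400 CPM at 6 weeks and 121200 to 129700 CPM at 12 weeks without overlap, and of the endothelial markers 3 of 10 were higher (median 1.21). The part of length and of these cells was not tested.

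In zQ175 at 12 weeks the members were slightly higher than in WT littermates, mostly below the threshold. The change was above 0 in 76 of 77, with a median of 0.30 (1.23-fold) against -0.01 over all genes, but only Rpl13a was called, where 0.0487% of the 14372 genes tested were called higher and 0.0348% lower. At an unadjusted p under 0.05, 61 members were higher and 1 lower, against 6.78% and 8.13% of all genes. Rpl13a, a large-subunit protein that is also known for a role in silencing inflammatory messenger RNAs, was at 76.3, 93.6 and 109 CPM in WT and at 129, 130 and 150 CPM in zQ175 (lowest, median and highest of 6 each). It was 0.48 higher (SE 0.08, adjusted p = 0.0412), with no overlap between the groups, but it kept the call in 8 of 20 alternatives, with an adjusted p between 0.000114 and 0.405.

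For 9 members all 6 zQ175 libraries lay above all 6 WT libraries, against 1.02% of all genes. Rps21 had the largest change (0.60, SE 0.13, adjusted p = 0.0848) and Rps2 the only one below 0 (-0.28, SE 0.12, adjusted p = 0.267). DESeq2 called 26 members higher, with 1.25% of all genes, and a fit of all 8 groups called 0. The WT library with the lowest share, replicate 2 (0.659%), and that with the highest, replicate 1 (1.01%), set the spread of the WT group. Without replicate 1 of WT, 2 members were called, and without any 1 of the zQ175 libraries 0. Without any 1 of WT replicates 2, 3, 4 and 6, 0 were called as well. For the fits that left out a library the share of all genes is not given, so that these counts cannot be set against it. The median change was -0.16 for microglia and macrophage markers, 0.30 for fibroblast markers, -0.12 for mature oligodendrocyte markers, 0.66 for red blood cell markers (group means of their sum 288 CPM in zQ175 and 165 CPM in WT) and 0.42 for ependymal markers, of which none was called, and 0.20 for short genes that are not ribosomal. Among the members the change fell with coding length (rho -0.60). The part of gene length and of these cells in this result was not tested.

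At 1 year the members were lower in zQ175 than in WT, with 0 of 77 called in edgeR, where 0% of all 14951 genes tested were called higher and 0.00669% lower. At an unadjusted p under 0.05, 59 members were lower and 0 higher, against 5.33% and 6.08% of all genes. DESeq2 called 7 members and 0.956% of all genes lower, and edgeR with all 8 groups in 1 fit called 28 members and 4.55% of all genes lower. The change was below 0 in 77 of 77, with a median of -0.46 (1.37-fold) against 0.02 over all genes, and all 5 zQ175 libraries lay below all 4 WT libraries for 30 members and for 2.73% of all genes.

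Rps12, a small-subunit protein, had the largest difference at 1 year. It was at 92.1, 84.6, 142 and 88.1 CPM in WT and at 55.0, 59.2, 36.1, 76.9 and 48.9 CPM in zQ175, a difference of -0.83 (SE 0.22, adjusted p = 0.164). The groups did not overlap, and the highest library was WT replicate 4 and the lowest zQ175 replicate 4. Rpsa was at 549, 394, 594 and 418 CPM in WT and at 331, 341, 208, 313 and 279 CPM in zQ175, again without overlap (-0.68, SE 0.17, adjusted p = 0.144). Rplp0, at 659, 620, 712 and 489 CPM in WT and at 344, 591, 366, 435 and 530 CPM in zQ175, overlapped (-0.41, SE 0.16, adjusted p = 0.353). Rps27l, a p53-induced copy of Rps27, differed least (-0.02, SE 0.14, adjusted p = 0.980).

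Values of other cells and of length at 1 year stand beside this. The change went with coding length (rho 0.42), and summed markers of mature oligodendrocytes were at 60280 to 74510 CPM in zQ175 against 81750 to 104100 CPM in WT and those of astrocytes at 787 to 958 CPM against 535 to 678 CPM, both without overlap. The median change was 1.99 for progenitor markers, 0.78 for neuronal, -0.71 for microglia and macrophage, -0.68 for endothelial, -0.69 for mural and -0.68 for red blood cell markers. It was 0.02 for the 10 astrocyte markers, although their sum was higher in zQ175, and -0.29 for mature oligodendrocyte markers. No marker of these lists was called. Short genes that are not ribosomal had a median of 0.01, and 0 of 1167 were called. The part of these values in the members' difference was not tested.

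The change with genotype thus ran in opposite directions at the 2 ages of the zQ175 line, and the difference itself was tested. The genotype effect at 1 year minus that at 12 weeks was below 0 in 77 of 77 members, with a median of -0.81, and 18 were called lower and 0 higher, against 0.175% and 0.0726% of 16535 genes. By the rule of largest change these were led by Rps12 (-1.37, SE 0.25), Rps21 (-1.36, SE 0.26), Rpl37a (-1.24, SE 0.22), Rps27 (-1.21, SE 0.25), Rpl36 (-1.15, SE 0.22) and Rpl37 (-1.08, SE 0.23), all with an adjusted p between 0.0450 and 0.0453 in edgeR. Rplp1 of the stalk (-0.96, SE 0.20), Rps19 (-1.04, SE 0.22) and Rpsa (-0.93, SE 0.20) were called too. All 8 called small-subunit and 10 called large-subunit members lay just inside the threshold, and the count was fragile. It was 0 without any 1 of 13 libraries: all 6 of zQ175 at 12 weeks, WT at 12 weeks replicate 2, 3, 4 or 6, WT at 1 year replicate 2 or 4 or zQ175 at 1 year replicate 6. It was 1 without zQ175 at 1 year replicate 4, 3 without replicate 2, 3 without WT at 1 year replicate 5, and 6 without WT at 12 weeks replicate 5. For the fits named so far the share of all genes is not given, so that these counts cannot be set against it. The count was 42 without zQ175 at 1 year replicate 5, where 0.497% of all genes were lower, and 44 without WT at 1 year replicate 3, where 0.759% were. The median stayed between -0.90 and -0.64 in all of the alternatives. The difference went with coding length (rho 0.64), with a median of -0.21 for short genes that are not ribosomal. It was 2.21 for progenitor, -1.18 for mural, -1.46 for red blood cell and 0.74 for neuroblast markers, none of them called, and the part of these was not tested.

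**Figure D5:**
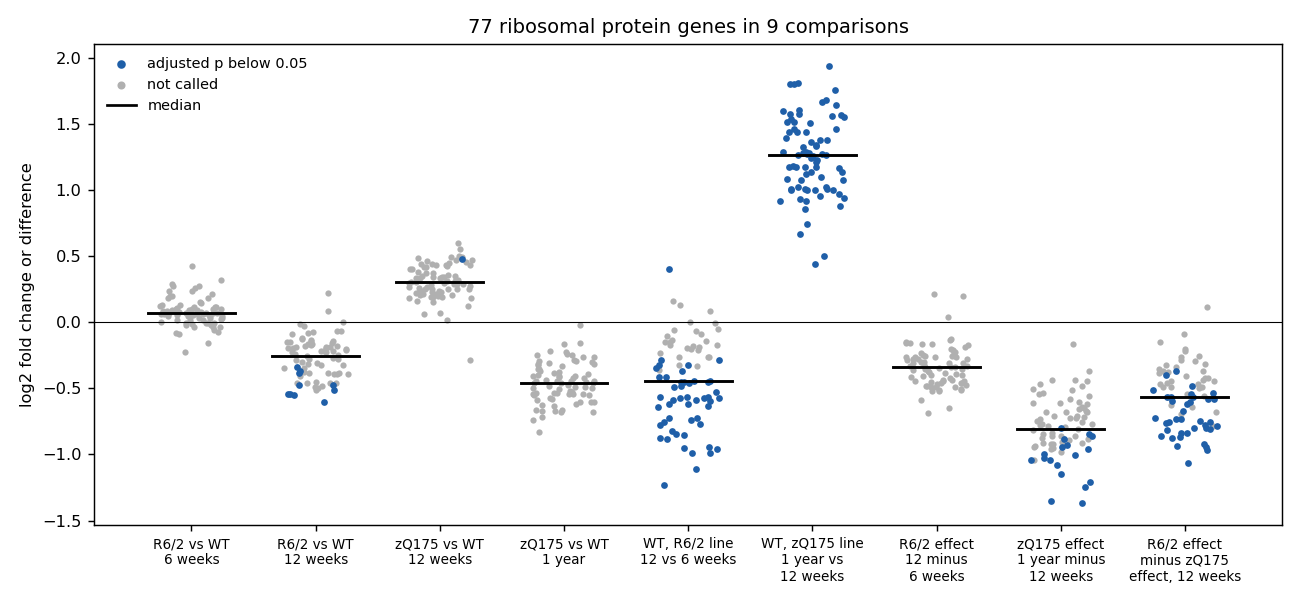
Log2 fold change, or difference of log2 fold changes, (y axis) of the 77 members tested in each of the 9 comparisons (x axis), with 1 point per gene, blue where the adjusted p was below 0.05, and black lines for medians. The WT littermates of the zQ175 line stand apart with a median of 1.26, and the medians of the zQ175 effect are 0.30 at 12 weeks and -0.46 at 1 year.

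In R6/2 at 6 weeks 0 of 77 members were called in either direction, against 2.33% of 14912 genes higher and 2.33% lower, and DESeq2 called 0. At an unadjusted p under 0.05, 2 members were higher and 0 lower, against 8.58% and 8.19% of all genes. The median was 0.07, and -0.03 without R6/2 replicate 1, the library with the highest share. With libraries scaled by total counts alone it was 0.29, with 77 of 77 above 0 and 2 called higher, where the median of all genes was 0.23 and 9.03% of them were called higher and 0.858% lower. Rpl10 had the largest change (0.42, SE 0.15, adjusted p = 0.135). Rplp0 was at 126, 124, 138, 154 and 157 CPM in WT and at 131, 145 and 186 CPM (lowest, median and highest) in R6/2, with overlap. Mature oligodendrocyte markers were lower in 14 of 16. They summed to 82940 to 117900 CPM in R6/2 against 162400 to 165400 CPM in WT, without overlap. Progenitor markers were called in 0 of 12 (median -0.04). The part of these cells in the result was not tested.

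In R6/2 at 12 weeks, 10 of 77 members were called lower and 0 higher, against 19.1% of the 14952 genes tested called lower and 19% higher. The members' share, 13%, was thus below that of all genes. The change was below 0 in 74 of 77, with a median of -0.25, against -0.03 over all genes. This direction rests on the scaling, and it was reversed, at a median of 0.12 with 52 members above 0 and 2 called higher, when libraries were scaled by total counts alone. With that scaling the median of all genes was 0.34, and 47.2% of all genes were called higher and 7.7% lower. TMM factors were 1.17 to 1.28 in R6/2 at 12 weeks and 0.961 to 1.02 in WT. Mature oligodendrocyte markers, 16 of 16 of which were lower, summed to 47910 to 62990 CPM in R6/2 against 121200 to 129700 CPM in WT, and 9 of 12 progenitor markers were higher. Of the fibroblast markers 8 of 9 were lower. Red blood cell markers were lower in 4 of 5, microglia and macrophage markers in 5 of 14 and endothelial markers in 4 of 10, with 0 higher in each list. The change went with coding length (rho 0.37). Of 1108 short genes that are not ribosomal 218 were lower and 165 higher, with a median of -0.09. The part of length and of these cells in the result was not tested.

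The largest falls included Rpl28 (-0.61, SE 0.15, adjusted p = 0.00346), Rps26 (-0.54, SE 0.16), Rpl27a (-0.54, SE 0.18), Rps29 (-0.51, SE 0.19, adjusted p = 0.0402) and Rps19 (-0.47, SE 0.17, adjusted p = 0.0382). Rpl28 was at 21.2, 25.6 and 29.9 CPM in WT and at 13.4, 14.8 and 24.99 CPM in R6/2 (lowest, median and highest of 7 each), so that 5 of 7 R6/2 libraries were below every WT library while the groups overlapped. Rpl28, Rps26 and Rpl27a were called in 21 of 22 alternatives, the exception being scaling by total counts alone. Rps29 was called in 8 and Rps19 in 9 of the 22. Rpl22 went the other way by its value (0.22, SE 0.13, adjusted p = 0.179), at 17.6, 22.3 and 22.9 CPM in WT and 21.2, 23.7 and 37.2 CPM in R6/2.

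One library weighed on that result. Without R6/2 replicate 7, 63 of 77 members were lower, with a median of -0.42, against 23% of all genes lower. The count was 5 without R6/2 replicate 1, 2, 3 or 4, and also without WT replicate 1, 2, 3 or 6, and 6 without R6/2 replicate 5 or WT replicate 7. For these counts of 5 and 6 the share of all genes is not given, so that they cannot be set against it. The R6/2 effect at 12 weeks minus that at 6 weeks had a median of -0.34 with 0 members called in edgeR, against 2.85% of 16513 genes higher and 3.19% lower, and 0 in DESeq2. At an unadjusted p under 0.05, 9 members were lower and 0 higher, against 10.5% and 8.44% of all genes. Without R6/2 at 12 weeks replicate 7, 22 were lower, and 10 without both R6/2 libraries with the highest mitochondrial share, against 6.96% of all genes in both cases. By the same test of the difference, 16 of 16 mature oligodendrocyte markers and 2 of 9 fibroblast markers were lower, and 5 of 12 progenitor markers higher. The difference went with coding length (rho 0.48), with a median of -0.19 for short genes that are not ribosomal. The part of length and of these cells was not tested here.

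At 12 weeks, where both lines were sampled, the genotype effects differed. The R6/2 effect minus the zQ175 effect was below 0 in 76 of 77 members, with a median of -0.56, and 38 were called lower and 0 higher, against 10.4% and 10.8% of 16221 genes. The 6 largest were Rps21 (-1.06, SE 0.29, adjusted p = 0.00973), Rps27 (-0.96, SE 0.26), Rps12 (-0.95, SE 0.29), Rpl36 (-0.94, SE 0.26), Rpl37a (-0.92, SE 0.22, adjusted p = 0.00356) and Rpl35 (-0.88, SE 0.23). All 3 stalk genes were called, Rplp0 at -0.40 (SE 0.14), Rplp1 at -0.56 (SE 0.19) and Rplp2 at -0.80 (SE 0.22). Rpl22 was the member with a difference above 0 (0.12, SE 0.16, adjusted p = 0.662). With scaling by total counts alone the median was -0.25, 2 members were called lower and 1 higher, and of all genes 27% were higher and 4.39% lower. Without R6/2 replicate 7 the count lower was 72, against 15.1% of all genes. It was between 20 and 25 without WT replicate 6 of the R6/2 line, R6/2 replicate 3 or 4, zQ175 replicate 2 or WT replicate 2 of the zQ175 line. For these counts of 20 to 25 the share of all genes is not given, so that they cannot be set against it. The difference went with coding length (rho 0.63), and of 1171 short genes that are not ribosomal 233 were lower and 78 higher. Of the mature oligodendrocyte markers 16 of 16 were lower, of the progenitor markers 7 of 12 higher, of the fibroblast markers 6 of 9 lower and of the red blood cell markers 4 of 5 lower. The part of length and of these cells in the difference was not tested.

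Medians of members with and without the pyrimidine run shown above are given here as a description. In WT littermates of the zQ175 line the 32 tested members with a run had a median of 1.18 and the 25 with a window and no run a median of 1.285. In R6/2 at 12 weeks the medians were -0.26 and -0.22, and in zQ175 at 1 year -0.45 and -0.42. With age in WT littermates of the R6/2 line they were -0.57 and -0.45, and for the difference between lines at 12 weeks -0.58 and -0.495. Members with mostly whole values, whose reads were little shared, changed in the same direction as the rest in WT littermates of the zQ175 line: Rps3, with 4.35% of values not whole and named, like Rpl8, after its values were seen, rose by 0.67, Rpl22 (10.9%) by 1.02 and Rpl8 (28.3%) by 1.44.

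Genes close to the members by name or sequence mostly followed them. Rps3a1, a small-subunit gene whose symbol the rule does not take, rose by 0.85 (SE 0.14) in WT littermates of the zQ175 line, and Fau, which encodes a small-subunit protein fused to a ubiquitin-like protein, rose by 1.42 (SE 0.13). The copies Rpl22l1 and Rpl36al rose by 0.99 (SE 0.17) and 0.98 (SE 0.13), and Rps27l by 0.97 (SE 0.14) beside 1.46 (SE 0.17) in Rps27. Rpl7l1, a nucleolar relative of Rpl7 that is thought to act in making the ribosome rather than as part of it, did not pass the test there (-0.16, SE 0.12, adjusted p = 0.340) and fell with the members in WT littermates of the R6/2 line (-0.45, SE 0.06). Rps4l, annotated as a transcribed pseudogene of Rps4x, was higher in R6/2 at 6 weeks (1.05, SE 0.23, adjusted p = 0.0181), where Rps4x had a change of 0.07.

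Other genes of the translation machinery moved in part with the members. Of 24 tested genes for elongation factors and other mRNAs with a pyrimidine tract, 18 rose and 0 fell in WT littermates of the zQ175 line. Among them Rack1, a protein of the small-subunit head, rose by 1.197 (SE 0.125), Tpt1 by 1.10 (SE 0.14) and Pabpc1, the poly(A)-binding protein, by 0.995 (SE 0.127). Eef1a1, the factor that brings aminoacyl-tRNA to the ribosome, did not pass the test (0.29, SE 0.14, adjusted p = 0.118). Mitochondrial ribosomal proteins, which are encoded in the nucleus and serve another ribosome, were higher in 56 of 78 and lower in 0. Initiation factors were mixed, with 13 of 35 higher and 5 lower, and of 47 genes of ribosome biogenesis and the nucleolus 7 were higher and 14 lower, with a median of -0.20. Among 28 regulators, 8 were higher and 10 lower. Of all genes tested in this comparison, 18.4% were higher and 21.4% lower.

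In WT littermates of the R6/2 line, 38 of 78 mitochondrial ribosomal proteins were lower and 1 higher, while of 25 elongation and tract genes 4 were lower and 3 higher, Eef1a1 among those higher (0.27). Of all genes tested there, 13.1% were lower and 12.2% higher. In R6/2 at 12 weeks, 11 of 35 initiation factors were lower and 0 higher, against 19.1% and 19% of all genes. Of 25 elongation and tract genes 3 were lower and 1 higher, and of 47 biogenesis genes 8 were lower and 3 higher. Of 27 regulators tested 5 were lower and 7 higher, with Eif2ak2, Cdkn1a and Mycl among those higher. Of 78 mitochondrial ribosomal proteins 7 were lower and 1 higher. Eef1a1 was lower (-0.42, adjusted p = 0.00411), as were the rRNA methyltransferase Fbl (-0.35, adjusted p = 0.0237) and Myc, a transcription factor that drives ribosome synthesis (-1.13, adjusted p = 0.00108). Larp1 was lower as well (-0.29, adjusted p = 0.00878), and the changes of Fbl and Larp1 were 0.02 and 0.08 when scaled by total counts alone. Mtor was not called (-0.00). In zQ175, edgeR called 0 of the 202 tested genes of these lists at 12 weeks and 0 of 204 at 1 year. At an unadjusted p under 0.05, 47 were higher and 16 lower at 12 weeks, and 3 were higher and 6 lower at 1 year. Of all genes, 6.78% were higher and 8.13% lower by that measure at 12 weeks, and 6.08% and 5.33% at 1 year. Only the count higher at 12 weeks lay above the share of all genes.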

How the data were processed

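RNA of sorted striatal cells was sequenced as poly(A)-selected, unstranded paired reads in 46 libraries. The authors deposited expected counts per gene, made with STAR 2.5.2b and RSEM 1.3.0 per the submitters' processing notes, which name the human build GRCh38 although the gene identifiers are of mouse. The mouse build and annotation are not given in the sources used here. Symbols and coding lengths came from GENCODE M21 (53706 of 53801 identifiers matched), and start sites from RefSeq. Expected counts were rounded and tested with edgeR 4.0.16 in R 4.3.3 (filterByExpr, TMM, robust quasi-likelihood, Benjamini-Hochberg), each comparison fitted on its own groups, and the procedure was tested on simulated data. DESeq2 1.42.0 was an alternative. Named genes were the 6 largest rises and falls among called members, the 3 largest in other lists, and genes listed by name for role or as copies. Members and lists were chosen with earlier results of these data known. No library duplicated another, and p-values measure the spread between pools. Some genes are not reported here.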

Additional observations from a re-analysis of the deposited data

Results flagged for a closer look

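In 72 groups of library values, for the member share and 8 genes, 8 had 1 library apart from the rest by Dixon's test. Chance gives about 1 in 20 for independent tests. These tests share libraries and use members that rise and fall together, so that the count cannot be set against that rate. R6/2 at 12 weeks replicate 7 was the high library for the member share (0.5417%), Rplp0 (179.7 CPM), Rpl22 (37.18 CPM) and Rpsa (170.8 CPM). Its mitochondrial share, 2.72%, was above that of the other 6 libraries of the group. R6/2 at 6 weeks replicate 1 was high for Rpl22 (37.18 CPM), with a mitochondrial share of 2.57%. Among WT littermates of zQ175 at 1 year, replicate 4 was high for Rps12 (141.5 CPM) and Rpl22 (107.1 CPM), with a mitochondrial share of 5.11%. WT littermates of R6/2 at 6 weeks had replicate 4 high for Rps29 (39.66 CPM).

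The genotype effect differed with age in the zQ175 line for 18 members and between the lines at 12 weeks for 38 members, each by the test of the difference itself in edgeR. Of all genes, 0.175% and 10.4% were called lower in these tests. The first count was 0 in 13 of 21 fits that left out 1 library. The second was 20 to 72 in such fits, and most of its members were not called with scaling by total counts alone. For most fits that left out a library the share of all genes is not given.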

How the results depend on the processing

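In WT littermates of the zQ175 line, between 76 and 77 members were higher in every alternative run. With age in WT of the R6/2 line, the count lower (48) stayed between 37 and 59. In R6/2 at 12 weeks (10 lower), upper quartile scaling and no filter beyond 1 count each gave 5, total counts alone 0 with 2 higher, and leaving out 1 library 5 to 63. With total counts alone, a scaling chosen after seeing the data, the median there was 0.12, and Eef2, Fbl, Larp1 and Ncl stood at 0.10, 0.02, 0.08 and 0.31. That scaling moved the median of all genes to 0.23 in R6/2 at 6 weeks, 0.34 in R6/2 at 12 weeks, 0.18 in zQ175 at 1 year, 0.15 for zQ175 age by genotype, 0.30 between lines, 0.11 with age in WT of the R6/2 line and -0.13 in WT of the zQ175 line. At 6 weeks it gave 2 members higher in R6/2, where the median lay between -0.03 and 0.12 when 1 library was left out. In zQ175 at 12 weeks (1 higher), upper quartile scaling, no filter and total counts each gave 2, and all 8 groups in 1 fit 0. DESeq2 gave 26, where 1.25% of all genes were higher. Leaving out 1 library gave 0 to 2, and the share with the near misses added was 1.13%. At 1 year (0 lower), DESeq2 gave 7 and all 8 groups 28, where 0.956% and 4.55% of all genes were lower. For zQ175 age by genotype (18 lower), DESeq2 gave 55, no filter 11 and all 8 groups 37. The share of all genes in these fits is not given, so that their counts cannot be set against it. Total counts gave 5, where 0.0302% of all genes were lower, and leaving out 1 library 0 to 44. For R6/2 age by genotype (0 lower), leaving out both libraries with the highest mitochondrial share, also chosen after seeing the data, gave 10, and leaving out 1 library 0 to 22. Between lines (38 lower), total counts gave 2 and 1 higher, and leaving out 1 library 20 to 72. With age in WT of the R6/2 line (1 higher), all 8 groups gave 0 and leaving out 1 library 0 to 1. Where no share of all genes is given here or above, a count under an alternative cannot be set against all genes. Causes were not tested.

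Same-numbered libraries did not deviate together (correlations between -0.15 and 0.18). With the number as a replicate block, 26 members were lower in R6/2 at 12 weeks and 0 higher in zQ175 at 12 weeks. The share of all genes called in these block fits is not given, so that the counts cannot be set against it.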
